A study of Mus musculus with 2 samples.

Results

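The genes described here encode all nuclear subunits of respiratory complex II, nuclear subunits of complexes III and IV, the electron carrier cytochrome c, and factors that assemble these complexes. They were chosen by name: 39 listed symbols were looked up in the deposited transcript tables, and the reads of all models of a symbol were summed. All 39 had reads in both libraries, out of 15390 annotated gene names with at least 1 read. They comprised 4 subunits and 4 assembly factors of complex II, 9 subunits and 4 assembly factors of complex III, Cycs, and 5 subunits and 12 assembly factors of complex IV.

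The samples were hearts of adult male mice of the strain B6CASTF1/J, a hybrid of C57BL/6J and CAST/EiJ, at 18 to 20 months, with 2 µg of RNA used per library and no treatment named. There was 1 group with 2 libraries, labelled biological replicates 1 and 2, which carry the same donor identifier. No condition could be compared, so every test below sets the libraries against each other and measures a difference against sampling of reads alone. How much of the spread is technical is not known. Replicate 1 held 688861 mouse reads and replicate 2 held 1003999. Levels are in CPM, reads per 1e6 mouse reads. A long read stands for 1 cDNA molecule, so CPM was not divided by transcript length. The limit that a count of 0 allows was 4.36 CPM in replicate 1 and 2.99 in replicate 2. All intervals printed are Clopper-Pearson at the 95% level, and they hold the sampling of reads and no other error.

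The cardiomyocyte markers were present, with 7 of 7 genes read and a sum of 34942 and 36916 CPM in replicates 1 and 2, and none of the 5 skeletal muscle markers had a read. Markers of other cells summed to lower levels. The 4 adipocyte markers, all read in replicate 1, summed to 244 CPM there and to 37.8 CPM in replicate 2, where Plin1 was at 0 and Adipoq had 2 reads. Most of these reads were Car3, with 132 and 29. The 5 fibroblast markers, all with reads, summed to 684 and 511 CPM, and the 4 macrophage markers to 102 and 86.7 CPM. The 5 erythroid markers summed to 7684 and 6996 CPM, the 5 endothelial markers to 1073 and 1355 CPM, and the 4 mural markers to 311 CPM in both libraries. Most of the endothelial sum was Cd36, with 595 and 704 CPM, and Fabp4, with 386 and 541 CPM. The other endothelial markers, Pecam1, Cdh5 and Kdr, each stood at 50.8 CPM or below. The part of these cells in the differences reported below was not tested. In tissue RNA, fewer cells of a type and less RNA per cell cannot be told apart.

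Complex II, succinate dehydrogenase, oxidises succinate in the citric acid cycle and passes the electrons to ubiquinone. Complex III passes electrons from ubiquinol to cytochrome c, a small soluble heme protein, and complex IV, cytochrome c oxidase, passes them on to oxygen. The heart relies on this chain for nearly all of its ATP. Complex II is encoded wholly in the nucleus, whereas complexes III and IV also hold subunits made from mitochondrial DNA, and all of them need dedicated factors that insert flavin, iron-sulfur clusters, heme or copper.

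The most frequent new junction among these genes lay in Sdhb, the iron-sulfur subunit of complex II, and its sequence is shown first because it changes the coding sequence. The junction of exons 1 and 2 is on chromosome 4 (mm10, plus strand), where exon 1 ends at 140961476 and annotated exon 2 begins at 140966495. The new model begins exon 2 at 140966501, 6 nt further on. The capitals mark the 6 bases that the annotated transcript holds and the new model leaves out; each line starts 36 coding bases before the junction.
Sdhb-201: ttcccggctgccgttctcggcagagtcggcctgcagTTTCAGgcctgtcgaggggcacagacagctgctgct
new Sdhb model: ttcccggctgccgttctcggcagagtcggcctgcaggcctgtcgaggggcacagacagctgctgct
The skipped bases follow 24 whole codons and make up 2 codons, so the reading frame is kept. They end in AG, the letters at the end of most introns.

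Cox7c, a small subunit of complex IV, has a processed copy on another chromosome that holds the same coding sequence letter for letter. It is shown because reads of Cox7c and of this copy, Gm12338 (chr11:75599763-75599954, minus strand, mm10), cannot be told apart over these 192 bases. The capitals mark the start and stop codons.
Cox7c coding sequence and Gm12338: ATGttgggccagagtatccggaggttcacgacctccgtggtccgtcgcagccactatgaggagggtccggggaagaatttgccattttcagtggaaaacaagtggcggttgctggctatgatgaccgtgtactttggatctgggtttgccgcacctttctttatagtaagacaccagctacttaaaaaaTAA

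The levels of the complexes are given first. The 39 genes together took 3.98% (replicate 1) and 4.03% (replicate 2) of mouse reads, or 40079 ± 381 CPM (SD, n = 2). The 18 structural subunits and Cycs made up 37160 ± 228 CPM with a median gene at 1816 CPM. The 20 assembly factors made up 2919 ± 154 CPM with a median gene at 63.7 CPM. In the order of mean levels, 25 of the 38 neighbouring pairs had ranges over both libraries that overlapped, so much of the fine order was within their spread.

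**Figure D1:**
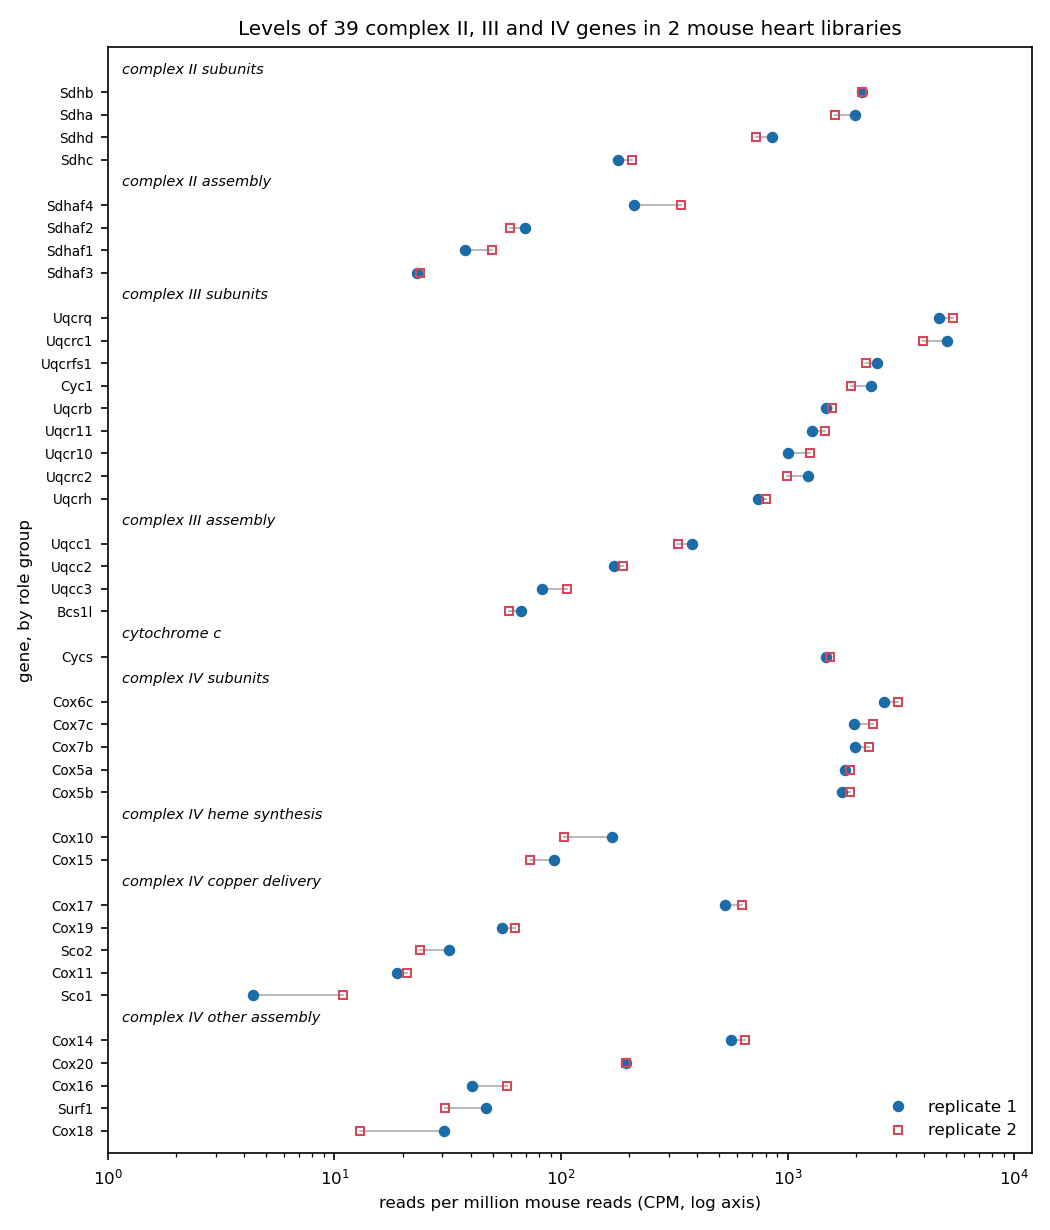
Level of each of the 39 genes (rows, grouped by role) in CPM on a log axis, with a filled circle for replicate 1 and an open square for replicate 2. Subunits and Cycs lie to the right, apart from Sdhc at 179 and 205 CPM, and assembly factors lie between 4.36 and 652 CPM.

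In complex II, Sdhb led with 1465 and 2140 reads, or 2127 and 2131 CPM in replicates 1 and 2. Sdha, the flavin subunit that binds succinate, gave 1366 and 1621 reads, or 1983 and 1615 CPM. The membrane anchor Sdhd gave 855 and 725 CPM. The other anchor, Sdhc, which binds heme together with Sdhd, was far lower at 179 and 205 CPM from 123 and 206 reads. The highest subunit of complex II thus exceeded the lowest 11.9-fold in replicate 1 and 10.4-fold in replicate 2, and the fold was 15.2 and 14.2 on known transcripts alone. Sdha was below Sdhb in both libraries.

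The 4 complex II assembly factors summed to 340 and 473 CPM. Sdhaf4, which protects free flavinylated Sdha before it joins Sdhb, accounted for most of this at 209 and 340 CPM (144 and 341 reads). Sdhaf2, needed for flavin attachment to Sdha, stood at 69.7 and 59.8 CPM. Sdhaf1 and Sdhaf3, which help bring iron-sulfur clusters to Sdhb, stood at 37.7 and 49.8 CPM and at 23.2 and 23.9 CPM. Sdhaf3 rested on 16 and 24 reads.

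In complex III, a pair of genes led. Uqcrq, a small subunit beside cytochrome b, gave 3200 and 5380 reads, or 4645 and 5359 CPM. Uqcrc1, a core protein of the matrix side, gave 3474 and 3991 reads, or 5043 and 3975 CPM. On known transcripts alone Uqcrq stood at 1789.9 and 2014 CPM, below Uqcrc1 at 4840 and 3804 and Uqcrfs1 at 2427 and 2173, so its place rests on the single-exon reads described below. Over all reads the order of Uqcrq and Uqcrc1 was opposite in the libraries, and both ranked among the 20 highest of all genes (places 17 and 19 by mean CPM).

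The catalytic nuclear subunits of complex III lay below these. Uqcrfs1, the Rieske iron-sulfur protein, stood at 2474 and 2222 CPM. Cyc1, the cytochrome c1 heme protein, stood at 2336 and 1912 CPM. The second core protein Uqcrc2 stood at 1228 and 999 CPM, below its partner Uqcrc1 in both libraries. It took 6.07% and 5.10% of the reads of the 9 subunits, against 24.9% and 20.3% for Uqcrc1.
The small subunits other than Uqcrq kept a narrower band. Uqcrb stood at 1484 and 1575 CPM, Uqcr11 at 1289 and 1464 CPM, Uqcr10 at 1006 and 1262 CPM, and the hinge protein Uqcrh at 740.4 and 802 CPM.

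Complex III assembly factors summed to 698 and 680.3 CPM. Uqcc1 and Uqcc2, which act on newly made cytochrome b, stood at 377 and 328 CPM and at 171 and 187 CPM. Uqcc3, which acts after them, stood at 82.7 and 107 CPM. Bcs1l, the ATPase that moves the Rieske protein across the inner membrane, stood at 66.8 and 58.8 CPM. Cycs itself gave 1016 and 1544 reads, or 1475 and 1538 CPM. Its testis-restricted paralogue Cyct had no read in replicate 1 and 1 read in replicate 2.

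In complex IV, the 5 subunits described here were close to each other. By reads assigned under its own name, Cox6c led at 2665 and 3089 CPM, followed by Cox7c at 1961 and 2380.5 CPM, Cox7b at 1984 and 2278 CPM, Cox5a at 1789.9 and 1893 CPM, and Cox5b at 1735 and 1896 CPM. The highest exceeded the lowest 1.54-fold in replicate 1 and 1.63-fold in replicate 2. The same ratio was 6.81 and 6.68 over the 9 subunits of complex III, and 6.87 and 4.99 on known transcripts alone. The 12 subunit genes of complex IV that have paralogues, such as Cox4i1 and Cox6a2, summed to 25017 and 29915 CPM, and 10 of them had reads. These 10 spanned a wide range, from Cox4i1 at 10208 and 11927 CPM to Cox4i2 at 5.81 and 7.97 CPM. The narrow band thus holds for the 5 subunits and not for all nuclear subunits of complex IV.

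Among complex IV assembly factors, Cox14 and Cox17 stood apart. Cox14, which binds newly made Cox1, gave 562 and 652 CPM, and Cox17, the copper carrier of the intermembrane space, gave 528 and 632 CPM. Cox20, a chaperone of Cox2, followed at 193 and 193 CPM. The heme a synthesis enzymes Cox10 and Cox15 stood at 168 and 104 CPM and at 92.9 and 72.7 CPM.
The other factors had few reads. The copper-binding proteins Cox19, Sco2, Cox11 and Sco1 gave 55.2 and 62.7, 31.9 and 23.9, 18.9 and 20.9, and 4.36 and 11.0 CPM. Sco1 rested on 3 and 11 reads and was the lowest of the 39. Cox16, Surf1 and Cox18, which act in the maturation of the core subunits, gave 40.6 and 57.8, 46.5 and 30.9, and 30.5 and 12.9 CPM.

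The libraries were then compared gene by gene. Ratios are log2 of replicate 2 over replicate 1 with a pseudocount of 1 CPM. Each gene's reads were set against the libraries' totals by a two-sided exact binomial test, with p adjusted over all genes (Benjamini-Hochberg). In this test 12 of the 39 differed, 6 higher and 6 lower in replicate 2. Across all 8833 genes tested the share was 3.35% (1.35% higher and 2.00% lower). Deep genes are called more often: 51.3% of the 238 genes with a total of at least 1000 reads were called, and 10 of the 19 of them that belong to the 39. The count for the 39 genes was therefore near that of genes of like depth. With TMM or DESeq2 scaling, which move all log2 ratios up by 0.10 and 0.09, 14 differed, 11 higher and 3 lower, so the split by direction rests on the scaling. Over all 8833 genes the split moved too: 287 were called with either scaling, 192 higher and 95 lower, in place of 119 and 177.

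In complex II, Sdha fell from 1983 to 1615 CPM, a log2 ratio of -0.30 (interval -0.40 to -0.19, adjusted p = 2.52e-06 by the binomial test). Sdhb did not pass, with a ratio of 0.00 and an interval from -0.09 to 0.10, and Sdhd did not at -0.24 (adjusted p = 0.0809). On known transcripts only Sdhd passed at -0.30 (adjusted p = 0.0342), and without models labelled genomic its ratio was 0.10 (adjusted p = 0.716). Sdhc had a ratio of 0.20 with an interval from -0.13 to 0.54. Sdhaf4 rose with a log2 ratio of 0.70 (interval 0.41 to 0.99, adjusted p = 4.45e-05). This call rests on which models are counted: on known transcripts only, with 54 and 117 reads, the ratio was 0.57 and missed the threshold (adjusted p = 0.214). Leaving out models labelled genomic turned it to -0.83 (adjusted p = 0.000227), and the labels behind this are given with the single-exon reads below.

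In complex III, 4 genes fell and 2 rose. The ones that fell were Uqcrc1 (-0.34, interval -0.41 to -0.28, adjusted p = 6.64e-22 by the binomial test), Uqcrc2 (-0.30), Cyc1 (-0.29) and Uqcrfs1 (-0.15). The ones that rose were Uqcr10 (0.33) and Uqcrq (0.21). Uqcrc2 and Uqcrfs1 did not pass with TMM scaling (adjusted p = 0.0748 and 0.726). Uqcr11, at 0.18 and not passing (adjusted p = 0.0696), passed with it at 0.28 (adjusted p = 0.000291). None of the 4 complex III assembly factors passed, and Cycs had a ratio of 0.06 with an interval from -0.06 to 0.18.

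In complex IV, 3 of the 5 subunits rose. Cox7c had a ratio of 0.28 (interval 0.18 to 0.38, adjusted p = 1.11e-06 by the binomial test), Cox6c 0.21 and Cox7b 0.20. Cox5a at 0.08 and Cox5b at 0.13 did not pass, but passed with TMM scaling at 0.18 and 0.22. Of the 12 assembly factors, Cox10 alone passed and fell by 0.70 (interval -1.10 to -0.31, adjusted p = 0.0137), from 116 reads to 104 in the deeper library. It missed the threshold with TMM scaling (adjusted p = 0.0601), under which Cox17 (0.35, adjusted p = 0.00795) and Cox14 (0.31, adjusted p = 0.0253) passed instead. Without genomic models Cox14 (0.38) and Sco2 (-1.88) passed beside Cox10, so which assembly factors are called rests on the setting. Leaving these models out removes 43 Cox14 reads from replicate 1 alone and 16 Sco2 reads from replicate 2 alone. Over all models and unscaled, the other 11 gave ratios from -1.17 for Cox18 to 1.16 for Sco1, both with under 40 reads in all.

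The 12 genes that differed lie at the following places of mm10. Those of complex II are Sdha at chr13:74322254-74350280 and Sdhaf4 at chr1:23995939-24005656. Those of complex III are Uqcrc1 at chr9:108936633-108949623, Uqcrc2 at chr7:120635176-120659524, Cyc1 at chr15:76343523-76346260, Uqcrfs1 at chr13:30540308-30545362, Uqcr10 at chr11:4701973-4704342 and Uqcrq at chr11:53427922-53430831. Those of complex IV are Cox7c at chr13:86044816-86046904, Cox6c at chr15:35925886-35938246, Cox7b at chrX:106015700-106022450 and Cox10 at chr11:63962627-64079468.

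The genes that complete these complexes gave the following values. All 4 mitochondrially encoded subunits of complexes III and IV rose, with log2 ratios of 0.53 for mt-Cytb, 0.18 for mt-Co1, 0.64 for mt-Co2 and 0.64 for mt-Co3. Of the 10 complex IV subunit genes with paralogues that were tested, 4 rose (Cox4i1, Cox6a2, Cox7a1 and Cox8b) and none fell, with a median of 0.17. Of 17 further genes tested, listed as other assembly factors, 1 rose and the median was -0.03. The gene that rose was Ndufa4, a subunit of complex IV, so no assembly factor of this list passed. Of 6 heme, iron-sulfur and cytochrome c partners none passed. Among 9 regulators tested, 1 rose, Esrra, an orphan nuclear receptor that acts on respiratory genes. The median over all tested genes was -0.06 and over the 39 genes 0.09.

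Among the genes described here, the direction of the differences largely went with transcript length. The length used is the mean annotated length of the known transcripts that a gene's reads were given to, and the comparison took genes with a total of at least 100 reads. Of the 31 genes described here that had them, 15 had transcripts of up to 1000 nt, and 15 of these 15 had ratios above 0, with a median of 0.20. The lowest was Cox20 at 0.00, and on known transcripts alone 14 of the 15 were above 0. Of the 16 with longer transcripts 11 lay below 0, with a median of -0.21. All 5 subunits of complex IV were in the short class (Cox7b just inside it at 997 nt), as were Uqcr10, Uqcr11, Uqcrb and Uqcrh. Sdha, Uqcrc1, Uqcrc2, Uqcrfs1 and Cyc1 were in the long class. The limit of 1000 nt was chosen after the values were seen.

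Other genes were compared in the same way. Of the further genes reported above as rising, mt-Cytb (1144 nt), mt-Co1 (1545 nt) and Esrra (2242 nt) had transcripts over the limit. The rest, mt-Co2, mt-Co3, Cox4i1, Cox6a2, Cox7a1, Cox8b and Ndufa4, had short ones. Over all 2322 genes with at least 100 reads the medians were 0.17 for the 419 short and -0.11 for the 1903 long ones. Of the short ones 77.6% lay above 0, against 100% of the genes described here. Of the long ones 65.2% lay below 0, near the 68.8% of the genes described here. This match rests on unscaled totals: with TMM scaling 52.8% of all long genes lay below 0, with a median of -0.02. The share of the genes described here stayed at 68.8%. Of all short genes 85.2% lay above 0 with TMM scaling. Spearman's rho between length and ratio was -0.59 over the 31 genes and -0.23 over the 2322, as a description, since genes share the libraries and are not independent replicates. The synthetic ERCC spike-ins, RNAs of known sequence that hold no heart RNA, were also compared, scaled to their own totals. Pooled over the 6 spike-ins of up to 1000 nt the log2 ratio was 0.19, and over the 7 longer ones it was -0.16. The spike-ins span 505 to 1107 nt only, so the longer ones lie just over the limit. The medians over single spike-ins were 0.07 for the short and -0.09 for the longer ones, and 2 of the 7 longer ones lay above 0. Pooled over the 39 genes it was 0.19 for the short and -0.12 for the long class. Without ERCC-00074, which held most of the short spike-in reads, the value for the short spike-ins was 0.06, on totals that still held it. The difference between the short and the longer spike-ins, on which the totals have no effect, was then 0.22 in place of 0.35. Whether length as such, or another step that differs between the libraries, set these ratios was not tested.

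**Figure D2:**
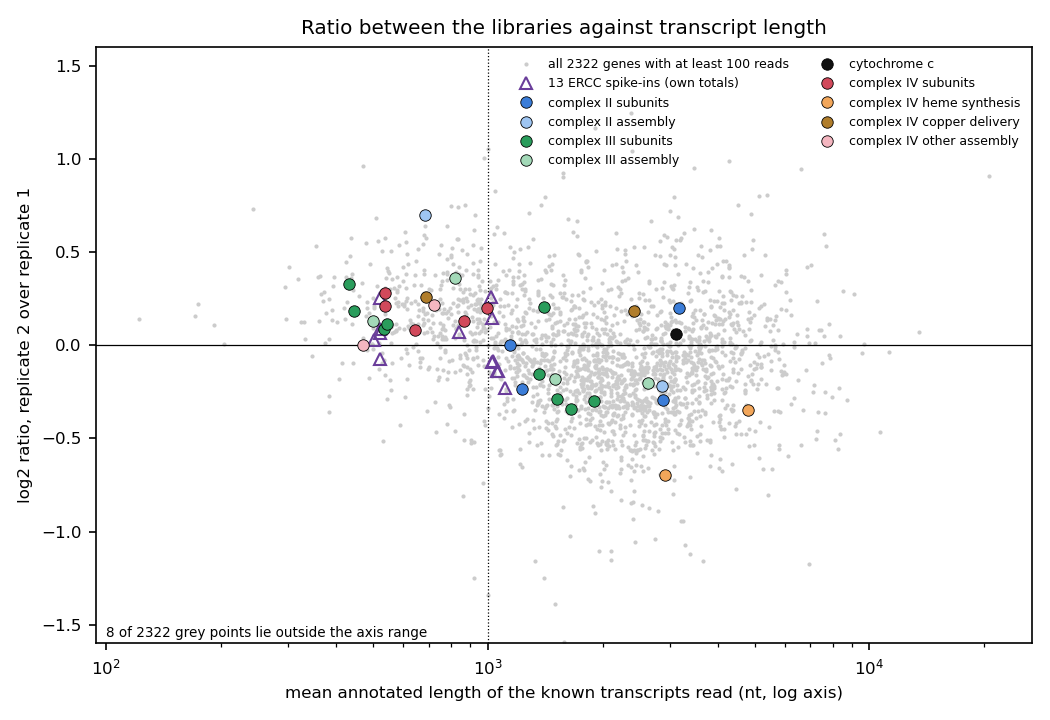
Log2 ratio of replicate 2 over replicate 1 against mean known transcript length on a log axis, with grey points for all 2322 genes of at least 100 reads, coloured circles for 31 of the genes described here by role, and open triangles for 13 ERCC spike-ins. The 15 coloured points left of the dotted line at 1000 nt all lie above 0, and 11 of the 16 to its right lie below 0. Over all 2322 genes, 77.6% of the short ones lie above 0 and 65.2% of the long ones lie below 0.

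The reads were next divided by the transcript that carried them. Of the 39 genes, 34 had at least 20 reads in each library and at least 2 models. In 16 of them 1 model held over 90% of the reads in both libraries. The median share of the top model was 90.05% and 89.7%, against 76.9% and 75.6% over all genes tested. Examples of nearly uniform genes were Uqcrfs1-201 with 98.1% and 97.8%, Cox7c-203 with 97.6% and 97.1%, and Cox5b-204 with 97.6% and 97.3%. Sdhaf1, a single-exon gene, had all 26 and 50 reads on Sdhaf1-201.

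Between libraries the top share differed in 1 of the 34 genes, against 0.812% of 3939 genes tested (Fisher's exact test, two-sided, Benjamini-Hochberg adjusted over all genes). This gene was Sdha, where Sdha-201 held 83.2% of reads (81.1 to 85.2) in replicate 1 and 77.4% (75.3 to 79.4) in replicate 2 (adjusted p = 0.0149). The share of reads on any known transcript differed in 1 of 35 genes, again Sdha (adjusted p = 0.0127), against 0.734% of all 4088 genes tested. The reads that made the difference were single-exon reads, with 7.32% of Sdha reads in replicate 1 and 12.5% in replicate 2. Most of them, 99 and 199 reads, were given to a model listed as 479 nt inside the last exon, at chr13:74322254-74322732 (mm10). This listed span does not hold the stop codon, but it does not give the length of the reads.

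**Figure D3:**
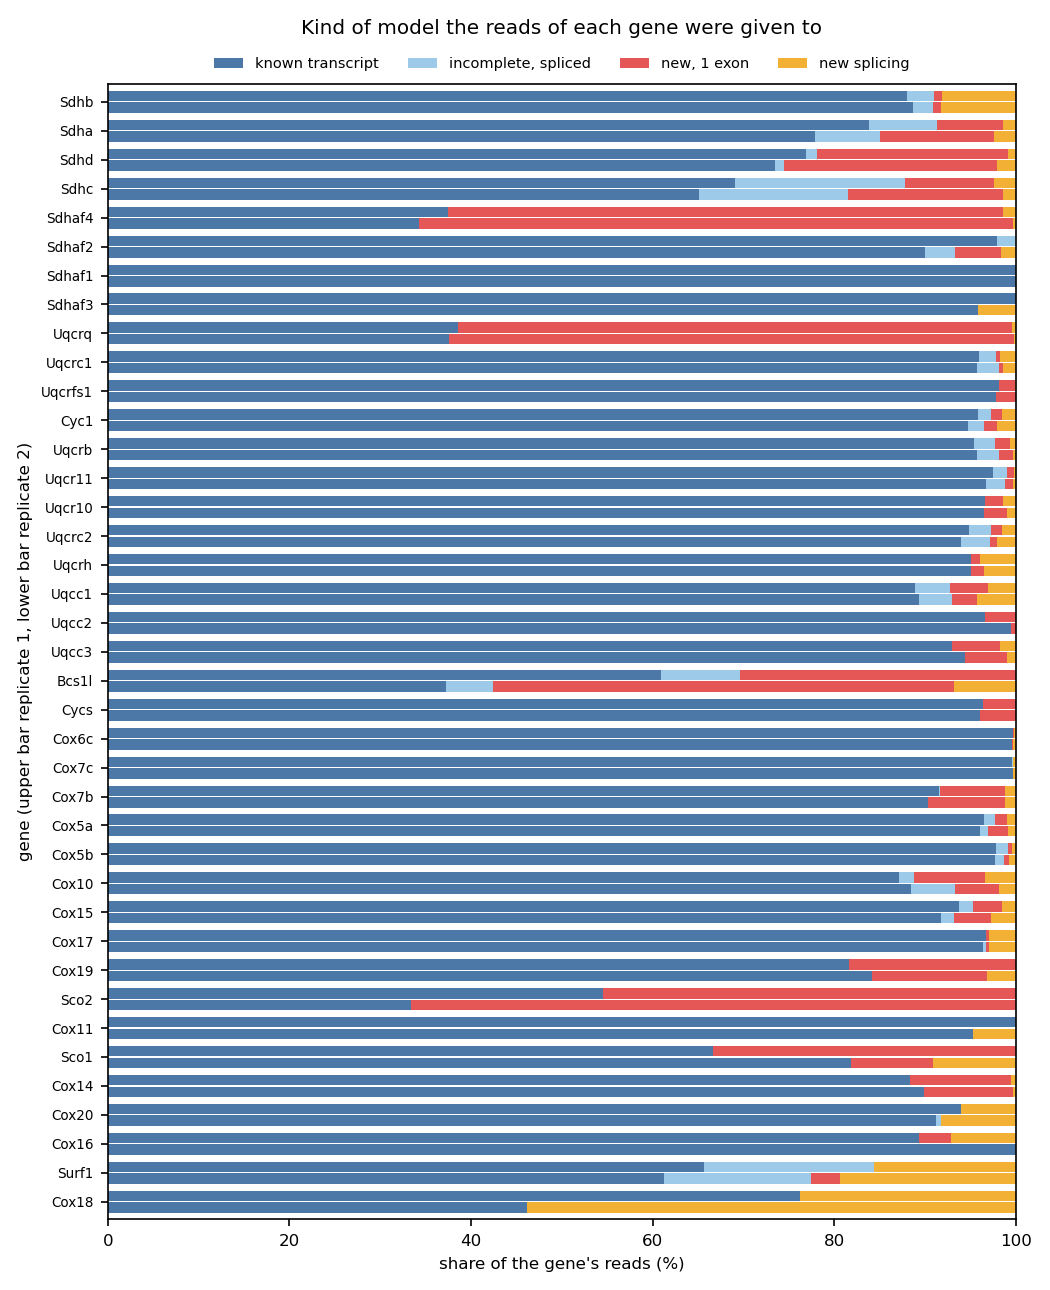
Share of each gene's reads (percent) given to known transcripts, incomplete spliced matches, new single-exon models and new splicing, with the upper bar for replicate 1 and the lower for replicate 2. Known transcripts take most reads of most genes, while Uqcrq (61.0% and 62.2%) and Sdhaf4 (61.1% and 65.4%) are mostly single-exon in both libraries.

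Uqcrq, the gene with the highest mean level of the 39, had most of its reads on a new model labelled an incomplete match to a known transcript. Only 38.5% and 37.6% of its reads were on known transcripts. A single-exon model took 1953 and 3345 reads, 61.0% (59.3 to 62.7) and 62.2% (60.9 to 63.5). It is listed as 198 nt at chr11:53428953-53429150 (mm10, minus strand), in the last exon, which Uqcrq-201 extends to 1229 nt. This listed span holds the stop codon, but it does not give the length of the reads. The known transcripts Uqcrq-201, of 1521 nt, and Uqcrq-203, of 405 nt, took 34.4% and 33.7% and then 3.28% and 3.16%. Uqcrq-203 and the single-exon model are listed with the same end base. Single-exon models of Cox7b, Cyc1 and Sdha also have a listed edge at the end of another annotated transcript. The length of 1403 nt used for Uqcrq above is a mean of annotated lengths and not a measured one, and Uqcrq had the highest ratio of the long class, 0.21.

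Single-exon reads were also the larger part of Sdhaf4, with 88 and 223 reads against 54 and 117 on Sdhaf4-201. In Sco2 they were 10 of 22 and 16 of 24 reads. In Bcs1l they were 14 of 46 and 30 of 59 reads, beside 27 and 21 on Bcs1l-203. Sdhd had 124 and 171 such reads, 21.05% and 23.5% of the gene. Over the 39 genes they made up 9.76% and 11.5% of reads, against 9.64% and 12.1% over all mouse genes. Uqcrq held 1953 of these 2676 reads in replicate 1 and 3345 of 4639 in replicate 2. The summed share therefore rests largely on Uqcrq and does not describe most of the other genes.
Incomplete spliced reads, which match a known transcript but lack its first or last exons, were a smaller class. They were most frequent in Sdhc, with 18.7% and 16.5% of its reads, and in Surf1, with 18.8% and 16.1%. In Sdha they took 7.47% and 7.16%. In the 5 complex IV subunits they stayed at 1.34% or below.

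Single-exon reads did not get the same label in both libraries. The deposited tables call a new single-exon model either an incomplete match to a known transcript or genomic. Of the 17 genes described here with at least 10 of these reads in each library, 8 switched label wholly: all such reads were of one kind in replicate 1 and of the other in replicate 2. Sdhaf4, Uqcrfs1, Uqcrb, Uqcrc1 and Sco2 went from incomplete to genomic, and Sdhd, Cox14 and Uqcr10 from genomic to incomplete. Over all genes, 182 of 854 switched their leading label, of which 156 did so wholly. The reversal of Sdhaf4 without genomic models arises here, since that setting removes 223 reads from replicate 2 and none from replicate 1. For Sdhd it removes 124 reads from replicate 1 and none from replicate 2.

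The coordinates of these models also varied. The genomic model of Sdhaf4 in replicate 2 and that of Sdhd in replicate 1 are listed as 1 nt long, at the 3′ end of the gene, while the incomplete models of the other library span the whole last exon of 422 and 894 nt. The listed span of such a model therefore does not give the length of the reads. Of 38 single-exon models with at least 10 reads, all 38 overlapped the last exon of the main transcript and 32 lay inside it.

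**Figure D4:**
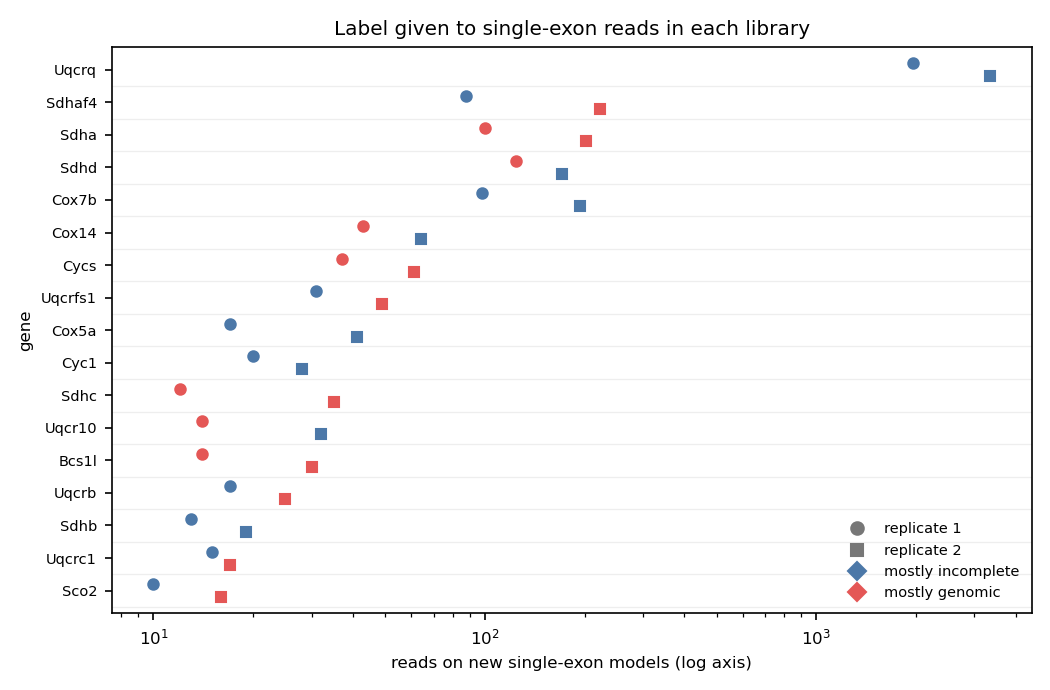
Reads on new single-exon models (log axis) in the 17 genes with at least 10 in each library, with circles for replicate 1, squares for replicate 2, blue where most were labelled incomplete and red where most were labelled genomic. The colour differs between libraries in 8 of the 17 genes, and Uqcrq has the most reads with 1953 and 3345.

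New splicing took 1.43% and 1.41% of the reads of the 39 genes. Spliced new models were matched between libraries by their introns. Of 256 intron chains in 35 genes, 69 were found in both libraries, 162 rested on 1 read in all, and 10 had at least 5 reads in each library. The Sdhb model shown above was the deepest of these, with 110 and 163 reads. It held 7.51% (6.21 to 8.98) and 7.62% (6.53 to 8.82) of Sdhb reads, and it was the 1 model that also reached 5% of its gene.
The other 9 were minor, and they are named after their values were seen. Uqcrh had a model with 17 and 24 reads, 3.33% and 2.98% of the gene, in which 1 new intron took the place of 2. Single splice sites were moved by 6 nt or less in Cox20, Sdhd and 2 models of Uqcrc1, and by 164 and 149 nt in Cox7b and Uqcr10. Cox17 gained an exon and Uqcrq an intron.

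Other annotated transcripts held at least 10% of reads in both libraries in few genes. In Cox17 the retained-intron transcript Cox17-204 took 10.7% (7.73 to 14.4) and 12.9% (10.4 to 15.8), beside Cox17-201 with 86.0% and 83.5%. Just under this limit, Cox6c-203, a 3-exon coding transcript, took 9.69% and 9.71% of Cox6c reads, the same share within its interval (8.38 to 11.1 and 8.69 to 10.8). In Sco2 the coding transcripts Sco2-201 and Sco2-202 had 7 and 6 and then 5 and 2 reads. Sco2-202 was under the limit in replicate 2, with 22.7% and 8.33%. In Cox18, Cox18-202 had 9 and 3 reads and Cox18-201 had 7 and 3.

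Cox16 divided its reads among 3 coding transcripts with different ends, and their ends are shown because each would give the protein another tail. Cox16-201 had 14 and 20 reads, Cox16-202 had 4 and 21, and Cox16-206 had 6 and 12. All share 204 coding bases before the exon that holds the stop codon. The lines give the coding part of that exon, on the minus strand of chromosome 12 in mm10, with the stop codon in capitals.
Cox16-201: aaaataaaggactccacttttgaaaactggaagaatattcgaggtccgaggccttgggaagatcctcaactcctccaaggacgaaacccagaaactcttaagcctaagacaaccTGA
Cox16-202: aggctgttatgtttattgtgcagacaaTGA
Cox16-206: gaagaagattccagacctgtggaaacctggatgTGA
These lie at chr12:81472235-81472351, chr12:81359315-81359344 and chr12:81472136-81472171. The coding sequences have 107, 78 and 80 codons with the stop codon. The exon of Cox16-202 is far from the others. All of Cox16 lies inside the same-strand gene Gm20498, to which 13 and 18 reads were given by name. The share of Cox16-202, 14.3% and 36.2%, has wide intervals at this depth.

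Copies of these genes limit how far a level can be given to 1 locus. By blastn, 12 of the 39 genes had 29 annotated copies of at least 95% identity, of which 11 had reads and 6 had at least 5. Gm12338 had 701 and 1103 reads, 51.9% and 46.2% of the count of Cox7c. Pooled with its copies, Cox7c stood at 2983 and 3485 CPM, above Cox6c in both libraries, and its log2 ratio was 0.22 in place of 0.28. Gm11273, a copy of Cox5b on chromosome 13 with a coding sequence of the same 390 bases and 3 substitutions (C114T, A213G and G243A, counted from the first base of the Cox5b start codon), had 284 and 472 reads. With it Cox5b stood at 2147 and 2367 CPM.
The copies of Cycs added little: Gm10108 had 32 and 44 reads and Gm10053 had 8 and 15, against 1016 and 1544 for Cycs. Gm2962, a copy of Uqcrb, had 3 and 17 reads, and Gm10012, a further copy of Cox7c, had 3 and 6. In addition, 15 of the 39 genes overlap another annotated gene, 3 of them on the same strand (Cox17, Sco2 and Cox16).

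Promoter windows of RefSeq (GRCm38.p6, 250 bases before to 50 after the start) matched 31 of the 39 genes, with 32 windows. They were searched on both strands for NRF1 (GCGCANGCG), the GABPA core (CCGGAAG) and YY1 (AANATGGCG), factors known to act on respiratory genes. NRF1 letters were in 25% of the windows, against 14.3% of the 8821 windows of genes tested here and 6.25% of all 32851 windows. The GABPA core was in 50%, against 18.5% and 8.86%. YY1 letters were in 6.25%, against 5.48% and 2.38%. A match is a description of the letters and not a site that was shown to be bound.
Below are 130 bases before to 20 after the start for Cycs, for Sdha, and for the 3 genes with both NRF1 and GABPA letters. Sdha and Uqcrc1 each had 3 NRF1 matches, the most, and Sdha is not shown for any other reason. Matches are in capitals.
Cycs start-site window: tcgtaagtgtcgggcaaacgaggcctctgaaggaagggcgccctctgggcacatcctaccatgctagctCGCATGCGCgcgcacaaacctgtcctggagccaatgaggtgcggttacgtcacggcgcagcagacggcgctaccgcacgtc
Sdha start-site window: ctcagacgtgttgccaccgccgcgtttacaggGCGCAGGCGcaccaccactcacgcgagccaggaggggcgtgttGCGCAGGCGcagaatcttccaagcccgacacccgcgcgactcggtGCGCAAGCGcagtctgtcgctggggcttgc
Sdhaf3 start-site window: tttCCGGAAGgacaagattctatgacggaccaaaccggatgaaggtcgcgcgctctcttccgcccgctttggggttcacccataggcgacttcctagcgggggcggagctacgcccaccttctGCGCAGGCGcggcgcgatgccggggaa
Sdhd start-site window: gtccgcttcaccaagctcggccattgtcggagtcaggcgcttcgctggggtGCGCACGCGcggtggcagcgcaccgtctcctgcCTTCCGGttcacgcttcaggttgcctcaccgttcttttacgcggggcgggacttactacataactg
Uqcr11 start-site window: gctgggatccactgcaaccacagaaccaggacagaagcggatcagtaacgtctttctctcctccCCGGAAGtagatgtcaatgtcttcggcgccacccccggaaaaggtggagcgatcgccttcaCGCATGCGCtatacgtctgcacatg
They lie at chr6:50566550-50566699, chr13:74350221-74350370, chr6:6955888-6956037 (plus strand), chr9:50603830-50603979 and chr10:80406802-80406951, the others on the minus strand. The genes with such letters differ widely in level: Sdha stood at 1983 and 1615 CPM and Sdhaf3 at 23.2 and 23.9 CPM.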

How the data were processed

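The authors deposited raw counts (whole reads for each transcript model) and an annotation with the positions of these models, 1 of each per library. The coordinates are in mm10 and known models carry GENCODE M21 names, per the file headers and the deposited text files; the aligner is not given in the sources used here, nor is its version. The members and lists were chosen with earlier results of these data known, and all 39 members are named by that rule. Transcripts are named for genes with 20 reads in each library or a share of 10% in both, new models at 5 reads in each library and 5% of the gene, and copies at 5 reads.

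Reads were summed by gene name (18 names cover several identifiers) and scaled to mouse reads; ERCC spike-ins were scaled to their own totals. Genes with a total of at least 10 reads were tested by a two-sided exact binomial test, with the expected share taken from the mouse reads of each library, and isoform shares by Fisher's exact test, each adjusted by Benjamini-Hochberg over all genes at a threshold of 0.05. The tests were tested on simulated data that held the sampling of reads alone. Such data cannot show how the tests behave where libraries differ by more than sampling. The chi-square between the libraries was 2.57 per gene over 8833 genes, so the files are not copies of each other. They were counted as 2 samples because the labels name 2 replicates; this value cannot show whether the animals or RNA were separate. Single-exon new models of a gene were pooled as 1 model. Copies were found with blastn 2.17.0 on annotated transcripts at 95% identity over at least 50% of the shorter sequence. Calculations used Python 3.11.15, scipy 1.17.1 and pandas 2.3.3, with edgeR 4.0.16 for TMM factors and DESeq2 1.42.0 for size factors as alternatives. Other alternatives covered count minimums, the reads counted, copies and leaving out each library. Proteins, SIRV spike-ins and promoters of 8 members were not analysed here.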

Additional observations from a re-analysis of the deposited data

How the results depend on the processing

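No paired analysis was possible because there is 1 group of 2 libraries. With TMM and with DESeq2 scaling 11 of the 39 genes were higher and 3 lower in replicate 2, in place of 6 and 6. Over all 8833 genes tested 192 were higher and 95 lower, in place of 119 and 177. On known transcripts only, summed levels were 4064 CPM for complex II subunits, 225 for complex II assembly, 16224 for complex III subunits, 610.0 for complex III assembly, 1449 for cytochrome c and 807 for other complex IV assembly. Pooling copies gave 1565 CPM for cytochrome c and 12342 for complex IV subunits. Without incomplete and genomic models 0 genes differed in top share by Fisher's exact test. Without genomic models in the denominator 4 of 34 differed in known share, against 97 of all 3809 genes tested. In the 8 genes that switched label wholly, this setting drops single-exon reads from 1 library alone. New spliced models found in both libraries numbered 38 at 2 reads each and 3 at 10. Without genomic models the ratio of Sdhaf4 reversed to -0.83 and that of Sdhd, which was not called, to 0.10. On known transcripts only Sdhaf3 and Cox20, both near 0 and not called, turned to -0.019 and -0.041. Among the genes described here, the medians of short and long genes kept their signs in all 7 alternatives each. They ranged from 0.18 to 0.29 and from -0.30 to -0.12. These alternatives, and the one without single-exon models, were added after the data were seen. Over all genes the median of the long ones was -0.02 with TMM scaling, in place of -0.11. Genes of at most 40 reads in all, which are Sco1, Cox11, Cox18 and Sdhaf3, have intervals too wide to show the differences seen in deep genes.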
